A study of Mus musculus with 5 samples.

Results

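The receptors described here carry the signals of myeloid cytokines, of the interleukin 6 family and of the interferons in mouse blood stem and progenitor cells. The set was chosen by symbol and held 10 genes. Csf2ra, Csf2rb and Il3ra encode the receptor chains for GM-CSF and interleukin 3, Csf3r the receptor for G-CSF, Il6ra and Il6st those for interleukin 6, and Ifngr1, Ifnar1 and Ifnar2 those for the interferons. The chosen set also holds Il2rg, the common gamma chain, for which the platform annotation used here gave no probe set, and it was not analysed here. The other 9 genes had 18 probe sets, of 18193 genes and 34945 probe sets named in all. The probe set with the highest mean over all arrays led for each gene.

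RNA came from sorted bone marrow cells of C57BL/6 mice, 2 samples from MSI2-inducible mice and 3 from control rtTA mice, each on its own Affymetrix whole-genome mouse array. MSI2 belongs to the Musashi proteins, which bind RNA and control its translation, rtTA is the transactivator that switches on doxycycline-inducible transgenes, and the series title places the study in normal blood formation and leukaemia. The labels used here do not give the transgene's sequence or promoter, whether or how long it was induced, the age of the mice or whether each array had its own animal, so p-values cover only array-to-array spread, which may be technical. The sample labels describe lineage-low cells with Sca1 and Kit, but the design text of the series gives a gate with Kit and without Sca1.

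Cytokine receptors of this family have no enzyme of their own. They pair or cluster on binding a ligand, activate JAK kinases held at their tails, and so switch on STAT transcription factors, which SOCS proteins then damp. In the marrow GM-CSF, interleukin 3 and G-CSF drive the output of granulocytes and monocytes, interleukin 6 signals through the shared chain gp130, and interferons act on stem cells during infection.

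The arrays did not group by genotype. On the first principal component, with 41.8% of the variance, MSI2-inducible replicate 1 scored -56.5 and replicate 2 scored 5.35, against 2.87, 37.3 and 11.0 in control arrays. The mouse Msi2 gene lay at 11.00 and 11.43 in MSI2-inducible arrays, against 11.67, 11.76 and 11.74 in control arrays (log2 intensity), so its brightest probe set was lower in both MSI2-inducible arrays and did not pass the test (limma adjusted p 0.883). Msi2 had 8 probe sets. The next brightest differed by -0.24, -0.17 and -0.32 (MSI2-inducible minus control mean, log2), and for -0.24 and -0.17 the arrays overlapped. The dimmer ones differed by -0.27 to 0.05, with overlapping arrays. A probe set may not read the transgene. Stem and progenitor markers were bright, with Kit between 8.80 and 9.66, Cd34 between 10.20 and 11.00 and Hlf between 10.62 and 11.18 over the 5 arrays, against a median of 5.57 for all probe sets. By group means, 8 of the 10 measured markers were lower in MSI2-inducible arrays and 2 higher, where 9031 of 18193 genes were lower. Relative to the control mean, the median marker stood at -0.46 and 0.13 in MSI2-inducible replicates 1 and 2, against -0.10, -0.04 and 0.09 in control arrays.

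None of the 9 receptor genes passed the test between MSI2-inducible and control arrays, where 0.022% of all genes did (0.0165% higher and 0.0055% lower). The test was limma's over all genes with Benjamini-Hochberg adjustment and a threshold of 0.05, and the receptors' adjusted p lay between 0.911 and 0.995. Their differences ranged from -0.46 to 0.81, with 4 genes higher and 5 lower and a median of -0.15, against 0.00189 over all genes. At an unadjusted limma p of 0.05, 0 receptors were called, against 5.64% of all genes. Both MSI2-inducible arrays lay outside the control range for 1 receptor in each direction, Csf2rb higher and Il6st lower, against 9.27% of all genes higher and 9.39% lower. Levels are given as log2 intensity from here on, and each difference is the MSI2-inducible mean minus the control mean on that scale.

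**Figure D1:**
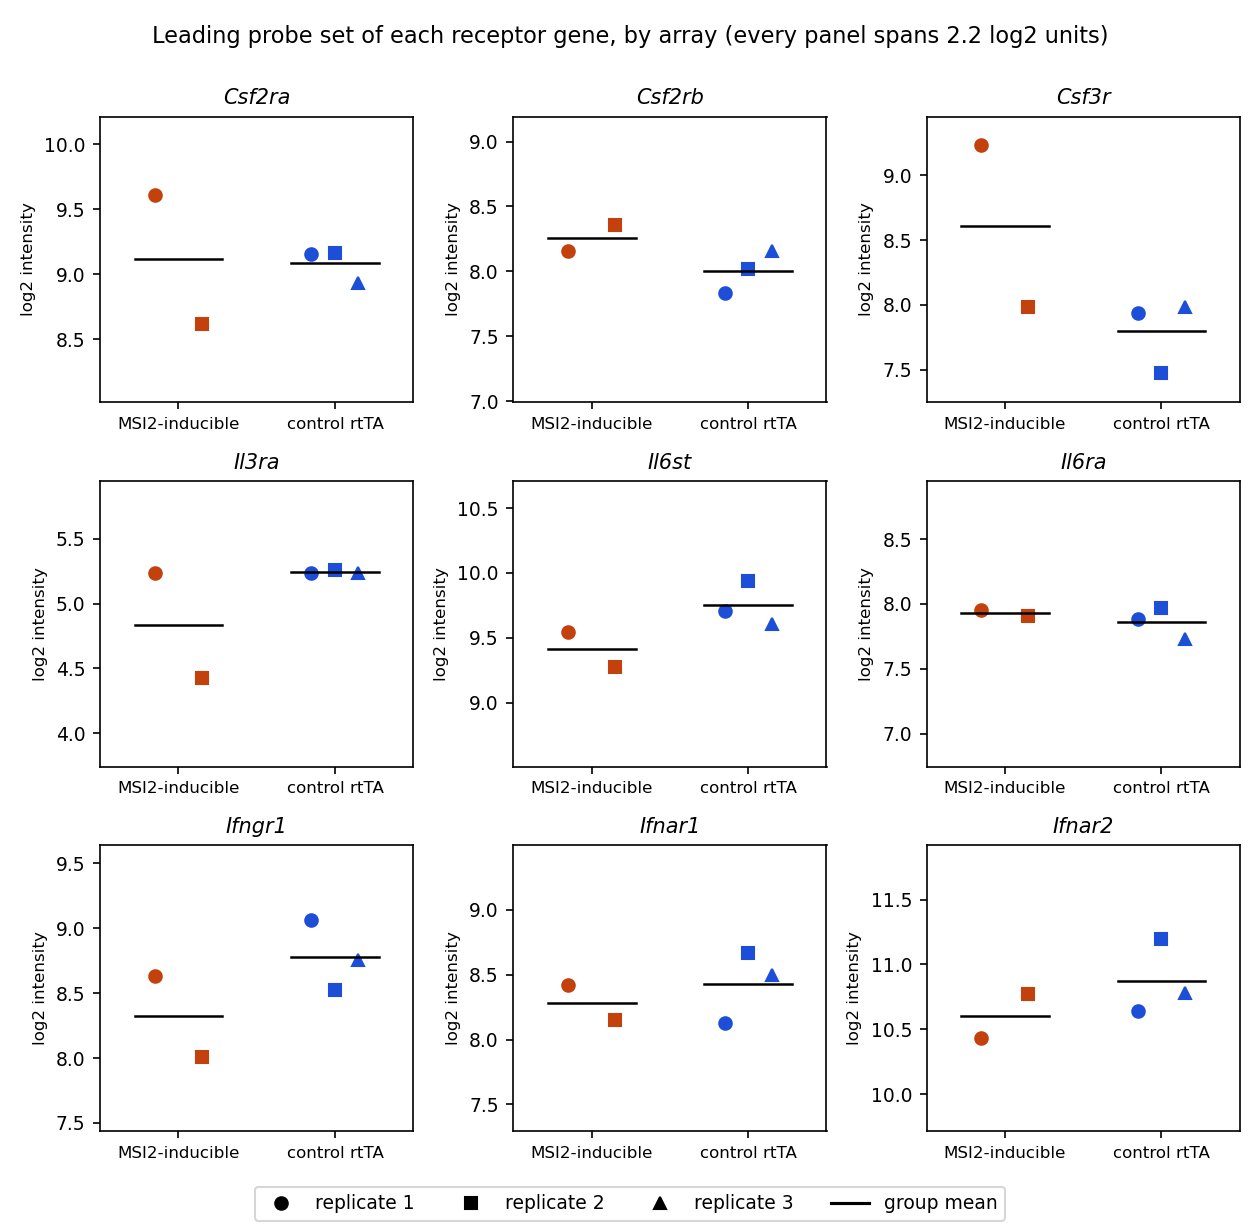
Log2 intensity (vertical axis, own level but the same span in every panel) of the leading probe set of each of 9 receptor genes, with MSI2-inducible arrays left and control rtTA arrays right; points are arrays and bars are group means. Csf2rb and Il6st are the 2 genes whose groups do not overlap, and Csf3r has its highest point, 9.23, in MSI2-inducible replicate 1.

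Csf3r, the receptor through which G-CSF drives neutrophil production, showed the largest difference of the 9. It lay at 9.23 and 7.98 in MSI2-inducible arrays, against 7.94, 7.47 and 7.98 in control arrays. MSI2-inducible replicate 1 stood above every other array, and replicate 2 lay within the control arrays. The difference was 0.81 (SE 0.40, 95% interval -0.16 to 1.78, limma adjusted p 0.911), or 1.75-fold with an interval of 0.892 to 3.44. It rested on replicate 1, since without that array it was 0.19 (adjusted p 0.996), and without MSI2-inducible replicate 2 it was 1.43 (adjusted p 0.269).

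Mature neutrophil markers were also highest in MSI2-inducible replicate 1, all 11 that were measured of 13 listed, where 28.3% of all genes were. Their summed intensity was 70194 and 12632 in MSI2-inducible replicates 1 and 2, against 15839 to 29488 in control arrays. Relative to the mean of the control arrays, the median marker stood at 1.99 and -0.97 in the MSI2-inducible arrays, against 0.33, -0.61 and 0.28 in control arrays. Lcn2, a secondary granule protein, lay at 11.47 and 6.94 in MSI2-inducible arrays, against 8.83, 7.05 and 8.95 in control arrays. Of the 11 markers, 3 had a mean under the median of all probe sets, and Ly6g was not analysed here. Csf3r was therefore high in the same array as the markers, but in replicate 2, where 7 of the 11 markers were at their lowest (8.12% of all genes were highest in replicate 1 and lowest in replicate 2), it was not below the control arrays. The markers' part in the Csf3r values was not tested. MSI2-inducible replicate 1 was highest for 12 of 13 early response genes, 6 of 7 erythroid markers and 6 of 9 monocyte and macrophage markers. It was highest for 1 of 6 granulocyte and monocyte progenitor markers and 0 of 10 stem and progenitor markers. A peak in that array was thus not particular to the neutrophil markers. In sorted bulk cells, fewer cells of a type and less RNA per cell cannot be told apart.

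**Figure D2:**
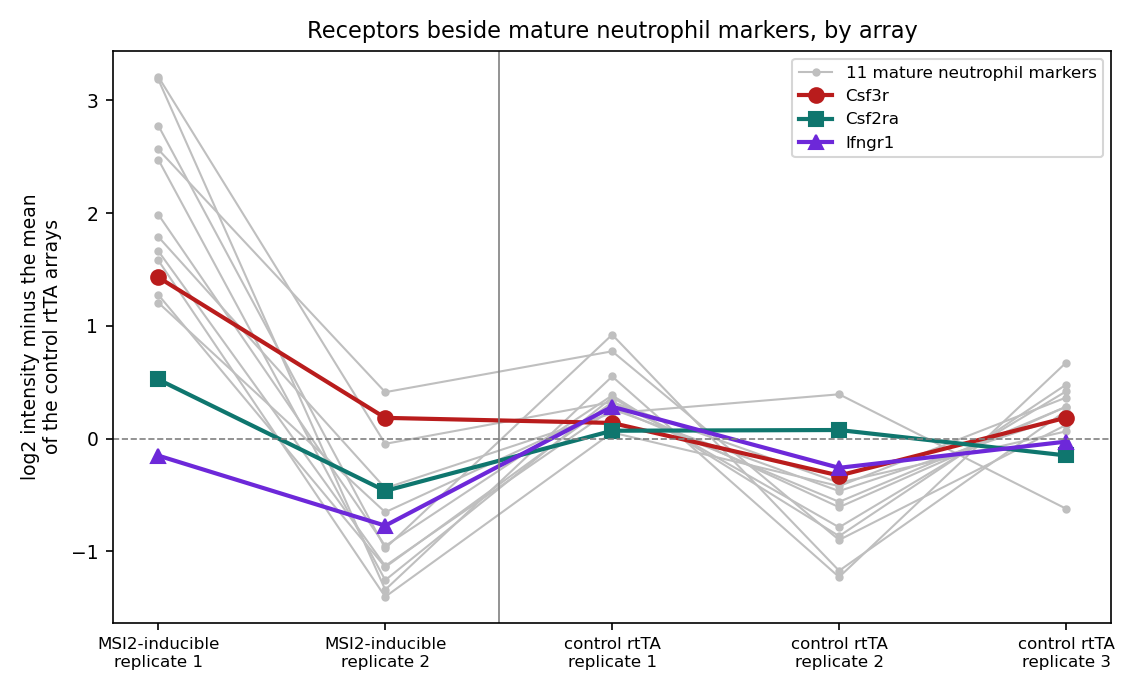
Log2 intensity minus the mean of the 3 control rtTA arrays (vertical axis) in each of the 5 arrays (horizontal axis), for 11 mature neutrophil markers (grey) and for Csf3r, Csf2ra and Ifngr1 (coloured). The grey lines and Csf3r peak in MSI2-inducible replicate 1, and Csf2ra and Ifngr1 are lower in MSI2-inducible replicate 2 than in any control array.

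Genes with the array profile most like that of Csf3r were Smad7, an inhibitor of TGF-beta signalling, Lrrc14 and the phosphomannomutase gene Pmm1. The measure was the Euclidean distance between profiles centred on their own mean over the 5 arrays, which was 0.148, 0.172 and 0.209. Smad7 lay at 7.17 and 5.81 in MSI2-inducible arrays, against 5.81, 5.23 and 5.91 in control arrays. With 5 arrays such a likeness is a description of these samples.

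Csf2ra, the chain that gives the GM-CSF receptor its specificity, had close means in both groups but MSI2-inducible arrays that were far apart. It lay at 9.61 and 8.62 in MSI2-inducible arrays, against 9.15, 9.16 and 8.93 in control arrays. The MSI2-inducible arrays lay on either side of all 3 control arrays, as they did for 12.5% of all genes. The means were 9.11 ± 0.70 (SD, n = 2) in MSI2-inducible and 9.08 ± 0.13 (SD, n = 3) in control arrays, a difference of 0.03 (95% interval -0.74 to 0.80, limma adjusted p 0.995). It was -0.46 without MSI2-inducible replicate 1 and 0.53 without replicate 2. A second Csf2ra probe set differed by 0.34, and there too replicate 1, at 7.41, was the highest array.

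Of the 9 receptors, Csf3r and Csf2ra were the 2 with their highest value in MSI2-inducible replicate 1, as had 28.3% of all genes. PU.1 and C/EBP factors are known, from human cells, to act at the promoters of both genes, so these promoters are shown for context. The windows run from 250 bases before to 50 bases after the start in RefSeq's GRCm38.p6, chr4:126024409-126024708 on the plus strand for Csf3r and chr19:61228369-61228668 on the minus strand for Csf2ra. Capitals mark GAGGAA, a core that PU.1 can bind, and TTNNGNAA, a C/EBP consensus, each searched on both strands, with no overlap between marked matches.
Csf3r: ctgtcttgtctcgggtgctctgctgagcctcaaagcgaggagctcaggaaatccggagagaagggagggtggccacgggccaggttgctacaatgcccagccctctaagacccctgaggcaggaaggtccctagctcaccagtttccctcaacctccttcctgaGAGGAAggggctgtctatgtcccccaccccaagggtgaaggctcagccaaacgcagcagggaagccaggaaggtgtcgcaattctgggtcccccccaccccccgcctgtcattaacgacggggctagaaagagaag
Csf2ra: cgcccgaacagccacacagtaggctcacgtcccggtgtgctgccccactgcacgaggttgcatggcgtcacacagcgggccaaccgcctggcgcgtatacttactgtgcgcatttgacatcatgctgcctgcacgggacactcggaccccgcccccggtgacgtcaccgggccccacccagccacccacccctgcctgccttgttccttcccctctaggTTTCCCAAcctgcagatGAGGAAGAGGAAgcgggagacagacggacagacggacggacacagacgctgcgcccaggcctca
The Csf3r window held 1 match to GAGGAA and 0 to TTNNGNAA. The Csf2ra window held 2 adjacent matches to GAGGAA and 1 to TTNNGNAA, on the other strand. Of the 8 receptors matched to a promoter by symbol, 4 held GAGGAA and 4 held TTNNGNAA, against 28.3% and 40.7% of all 32851 promoter windows of that length. A match describes the letters and shows no binding.

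Il3ra, the chain specific for interleukin 3, was dim. It lay at 5.23 and 4.43 in MSI2-inducible arrays, against 5.23, 5.26 and 5.23 in control arrays. Its mean over all arrays, 5.08, was below the 5.57 median given above, so the size of its difference is uncertain. MSI2-inducible replicate 1 had the same value as 2 control arrays, and replicate 2 lay below them. The difference was -0.41 (SE 0.26, limma adjusted p 0.919), and it was -0.81 without MSI2-inducible replicate 1 (adjusted p 0.926) and -0.01 without replicate 2.

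Csf2rb, the common beta chain that carries the signal of GM-CSF, interleukin 3 and interleukin 5, was slightly brighter in MSI2-inducible arrays. It lay at 8.16 and 8.35 there, against 7.83, 8.01 and 8.15 in control arrays. The lowest MSI2-inducible array stood only just above the highest control array. The difference was 0.26 (SE 0.19, 95% interval -0.20 to 0.71, limma adjusted p 0.922). A second probe set differed by 0.18, with overlapping arrays. Its neighbour Csf2rb2, which in the mouse encodes a beta chain used by interleukin 3 alone, differed by 0.09 (adjusted p 0.985), and 1 probe set that the annotation gives to both genes by 0.14. That probe set cannot tell the 2 genes apart.

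Il6st, which encodes gp130, the chain shared by interleukin 6, LIF and oncostatin M, had probe sets that split in direction, 2 lower and 2 higher. The leading one lay at 9.55 and 9.28 in MSI2-inducible arrays, against 9.71, 9.94 and 9.61 in control arrays. Both MSI2-inducible arrays were below all control arrays, by a difference of -0.34 (SE 0.19, 95% interval -0.82 to 0.14, limma adjusted p 0.912). The 3 dimmer probe sets differed by 0.16, 1.03 and -0.54, and in each the arrays overlapped. The mean of the 4 probe sets turned the difference to 0.0776. No direction can be given for Il6st from these values.

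Il6ra, the interleukin 6 binding chain, varied least. Its leading probe set lay at 7.96 and 7.91 in MSI2-inducible arrays, against 7.88, 7.97 and 7.73 in control arrays. The groups overlapped, and the difference was 0.07 (SE 0.17, 95% interval -0.35 to 0.49, limma adjusted p 0.982). The dimmer probe set differed by -0.27, which turned the average of the pair to -0.10.

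Ifngr1, the ligand-binding chain for interferon gamma, was on average lower in MSI2-inducible arrays. It lay at 8.63 and 8.01 there, against 9.07, 8.52 and 8.76 in control arrays. Replicate 2 was the lowest of all arrays, and replicate 1 lay within the control arrays. The difference was -0.46 (SE 0.27, 95% interval -1.12 to 0.20, limma adjusted p 0.912), and it was -0.77 without MSI2-inducible replicate 1 and -0.15 without replicate 2. Its partner chain Ifngr2 differed by -0.05 (adjusted p 0.987).

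Ifnar1 and Ifnar2 form the receptor for the interferons alpha and beta. Ifnar1 lay at 8.42 and 8.15 in MSI2-inducible arrays, against 8.13, 8.66 and 8.50 in control arrays. Ifnar2 lay at 10.44 and 10.77 in MSI2-inducible arrays, against 10.64, 11.20 and 10.78 in control arrays. The groups overlapped for both, and control replicate 2 was the highest array for each. The difference was -0.15 (SE 0.23, 95% interval -0.70 to 0.41) for Ifnar1 and -0.27 (SE 0.24, 95% interval -0.85 to 0.32) for Ifnar2, with limma adjusted p of 0.966 and 0.936. A second Ifnar1 probe set differed by -0.23, and the 2 other Ifnar2 probe sets by 0.21 and -0.20.

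Il10rb, a chain of the receptors for interleukin 10 and the lambda interferons, stands between Ifnar2 and Ifnar1 in the order of protein-coding genes, with Ifngr2 after them. It lay at 7.49 and 7.32 in MSI2-inducible arrays, against 7.93, 8.51 and 8.32 in control arrays. Both MSI2-inducible arrays were below all control arrays, and a second probe set differed by -0.59. The difference was -0.85 (SE 0.23) with an unadjusted limma p of 0.00968 and an adjusted p of 0.750, so it did not pass. The 4 neighbouring receptor genes Ifnar2, Il10rb, Ifnar1 and Ifngr2 thus differed by -0.27, -0.85, -0.15 and -0.05.

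**Figure D3:**
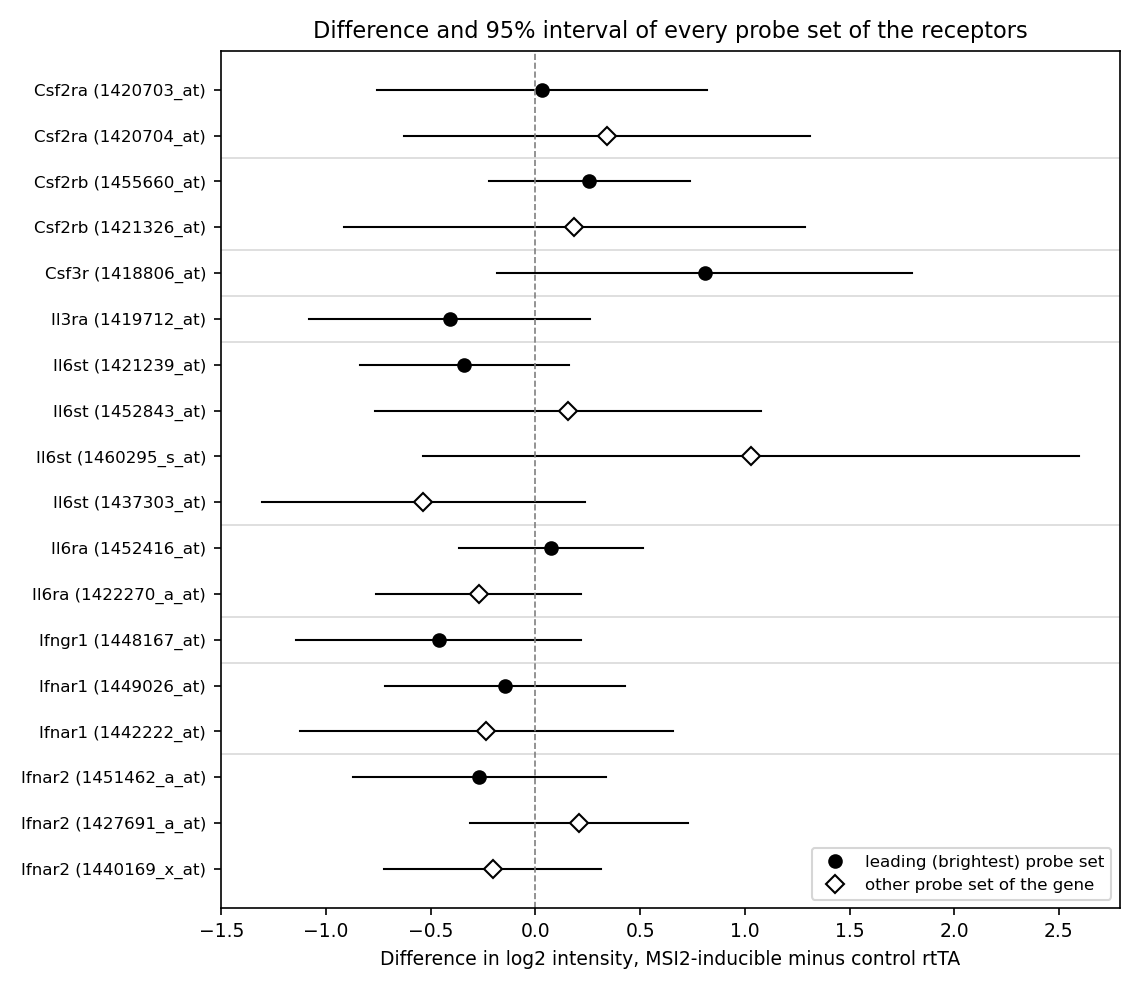
Difference in log2 intensity, MSI2-inducible minus control rtTA (horizontal axis), for each of the 18 probe sets of 9 receptor genes (rows); points are limma estimates and lines their 95% intervals, from the fit over every named probe set. All 18 intervals include 0, and 9 probe sets were higher and 9 lower.

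Across all 18 receptor probe sets, 0 passed limma's test adjusted over all 34945 probe sets, where 0.00858% of all probe sets did, with adjusted p between 0.882 and 0.996. At an unadjusted p of 0.05 the count was also 0, against 5.72% of all probe sets. Arrays did not overlap for 2 of them, against 19.1% of all probe sets. Of the 6 receptors with several probe sets, 3 (Il6st, Il6ra and Ifnar2) had probe sets that differed in sign. The gap between the MSI2-inducible arrays was larger than the whole control range for 4 of the 9 receptors (Csf3r, Csf2ra, Il3ra and Ifngr1), against 39.2% of all genes.

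Other receptor chains of blood cells gave no call either, in either direction, among 29 measured of 33 listed. Their median difference was 0.02, with 15 higher and 14 lower, and at an unadjusted limma p of 0.05, 1 was higher and 3 lower, against 2.87% and 2.77% of all genes. Epor, the erythropoietin receptor, lay at 8.30 and 7.89 in MSI2-inducible arrays, against 7.24, 6.97 and 6.57 in control arrays, a difference of 1.16 (adjusted p 0.616). The interleukin 18 receptor chain Il18r1 lay at 7.87 and 7.25 in MSI2-inducible arrays, against 8.34, 8.34 and 8.64 in control arrays, a difference of -0.88 (adjusted p 0.792). The TNF receptor Tnfrsf1b differed by -0.46 (adjusted p 0.883) and its other probe set by 0.16. The difference of the interleukin 15 receptor chain Il15ra was -0.95 (adjusted p 0.911), though its other probe set differed by 0.10. Epor is also an erythroid marker. Of the 7 measured markers of that kind, Epor included, 6 were higher, with 1.68 for the transcription factor Klf1 and 0.14 for the carbonic anhydrase Car2. The summed intensity of the 7 was 13025 and 11255 in MSI2-inducible arrays, against 8903 to 9266 in control arrays. Relative to the control mean, the median marker stood at 1.37 and 0.26 in MSI2-inducible arrays, against 0.31, -0.34 and 0.01 in control arrays. By this measure MSI2-inducible replicate 2 lay within the control range. In MSI2-inducible replicate 1 and control replicate 1 the median marker was Epor itself, so these medians are not independent of it. The other erythroid markers' part in the Epor values was not tested.

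Most genes in the list of ligands were dim, as 18 of the 22 measured had a mean under the median of all probe sets. The list also holds ligands of the common gamma chain, such as Il2 and Il7, though Il2rg was not analysed. It further holds Csf1 and Kitl, whose receptors Csf1r and Kit are among the other receptor chains. The median difference was -0.01, and 0 passed. Lif, which signals through gp130, lay at 5.11 and 5.41 in MSI2-inducible arrays, against 4.79, 4.66 and 4.52 in control arrays, a difference of 0.60 (limma adjusted p 0.870), and its other probe set differed by 0.90. Oncostatin M (Osm) differed by 0.80 (adjusted p 0.911) and the gp130 ligand Clcf1 by -0.87 (adjusted p 0.922), with -0.42 and -0.22 for its other probe sets.

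JAK kinases, STAT factors and adaptors had 0 calls among 19 measured of 22 listed, with a median difference of 0.09. Jak1 and Jak2, the kinases used by most of these receptors, differed by 0.26 and -0.06, Tyk2 by -0.20 and Jak3, the partner of the common gamma chain, by -0.62. Stat2, which acts with Irf9, differed by 0.36. Stat3, Stat5a and Stat5b, which carry the signals of gp130, G-CSF, GM-CSF and interleukin 3, differed by 0.25, 0.32 and -0.32. Irf9, the partner of the STAT factors downstream of the interferon alpha receptor, lay at 8.04 and 7.94 in MSI2-inducible arrays, against 7.09, 6.94 and 6.79 in control arrays. Its difference was 1.05 (SE 0.18, adjusted p 0.401), the only one of the list with an unadjusted limma p under 0.05.

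Inhibitors of receptor signalling had 0 calls among 21 members, 0 also at an unadjusted limma p of 0.05, and a median of 0.15. The feedback genes Cish, Socs1, Socs2 and Socs3 differed by 0.14, 0.29, -0.23 and 0.65, Socs5 by -0.41, and Usp18, which blocks the interferon alpha receptor at Ifnar2, by 1.05. Socs3 was uneven within both groups, at 8.21 and 6.97 in MSI2-inducible arrays, against 6.07, 8.38 and 6.39 in control arrays, and its 2 other probe sets differed by 1.53 and 0.40. Usp18 lay at 6.13 and 6.18 in MSI2-inducible arrays, against 5.94, 3.71 and 5.66 in control arrays, with control replicate 2 far below the other arrays.

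Genes known to follow STAT3 and STAT5 signals had 0 calls among 18 and a median of 0.19, with 15 higher and 3 lower. At an unadjusted limma p of 0.05, 4 were higher, namely Bcl6, a transcriptional repressor (0.89), Bcl2l1, a survival gene (0.88), Junb (0.75) and Fos (0.71), with adjusted p between 0.616 and 0.870, where 2.87% of all genes were higher by that rule. The other Bcl6 probe set differed by 0.36, and the 3 other Bcl2l1 probe sets by -0.01 to 0.31. Junb and Fos are also early response genes. That list of 13, Junb and Fos included, had a median difference of 1.04. For 11 members, Junb and Fos among them, both MSI2-inducible arrays lay above all control arrays, against 9.27% of all genes. The list's summed intensity was 39951 and 33645 in MSI2-inducible arrays, against 18469 to 27868 in control arrays. Its part in these values was not tested.

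Interferon-induced genes held the 1 call among all pathway lists. Ifi44l rose to 6.39 and 6.20 in MSI2-inducible arrays, against 2.22, 2.88 and 2.77 in control arrays, a difference of 3.67 (SE 0.25, limma adjusted p 0.0324). Its control values were far below the typical probe set, so the size is uncertain, and its 2 other probe sets differed by 3.57 and 0.41. Ifi44l did not pass with any 1 array left out. Of the 28 measured of 31 listed genes, 19 were higher and 9 lower with a median of 0.25. Both MSI2-inducible arrays were above all control arrays for 11, against 9.27% of all genes. The list shares 2 genes with the kinases and STAT factors, Irf9 among them, and 1 with the inhibitors. The chemokine Cxcl10 lay at 8.29 and 7.41 in MSI2-inducible arrays, against 5.94, 5.12 and 5.48 in control arrays, a difference of 2.34 (adjusted p 0.318). Oasl2, of the oligoadenylate synthetase family, lay at 8.85 and 8.85 in MSI2-inducible arrays, against 8.09, 7.77 and 7.86 in control arrays, a difference of 0.94 (adjusted p 0.482). Cxcl9 differed by 1.41, Ifit3 by 0.72 and the virus-tethering protein gene Bst2 by 0.47, with limma adjusted p between 0.870 and 0.880. The other Cxcl9 probe set differed by 0.33. All of these genes are among the 19 higher ones. Other interferon-induced genes were flat or lower, with 0.04 for Ifit1, 0.03 for Mx1, -0.07 for Rsad2, -0.22 for Ifit2 and -0.74 for Mx2. The leading probe sets of the 3 interferon receptor chains among the members, Ifngr1, Ifnar1 and Ifnar2, were all lower on average, with overlapping arrays. For Ifnar2 another probe set was higher, by 0.21.

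**Figure D4:**
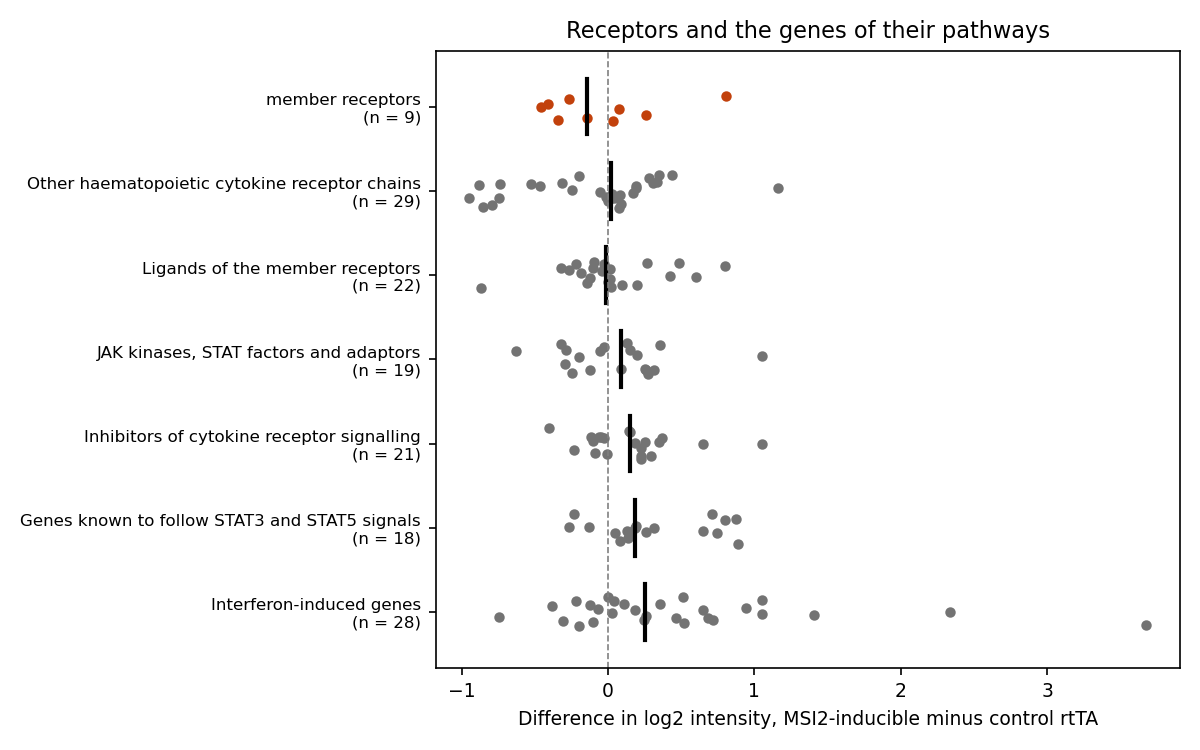
Difference in log2 intensity, MSI2-inducible minus control rtTA (horizontal axis), of the 9 member receptors and of 6 lists of pathway genes (rows); points are genes, thick bars list medians and the dashed line the median of all genes. The receptors lie between -0.46 and 0.81, and the farthest point, in the interferon-induced list, is Ifi44l at 3.67.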

How the data were processed

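Per the labels' protocols, RNA from sorted cells was amplified linearly, labelled with biotin and hybridised to Affymetrix arrays. The authors deposited 1 normalized intensity per probe set and array, not on a log scale. Per the submitters' processing notes, the tools were RMA, affy and R 2.11.0; how RMA's log values became linear is not stated there. Array medians lay between 46.4 and 48.3 intensity units. Values were log2-transformed as they stood, without a pseudocount. Names came from GEO's platform annotation, with symbols updated by Entrez ID through a GRCm38.p6 gene table. Of 45101 probe sets, 34958 had 1 gene symbol, 932 several, and 9211 were unnamed here; 64 were controls and left out. For each gene the probe set with the highest mean was used.

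The test was limma 3.58.1 under R 4.3.3, with lmFit on group alone and plain eBayes (no trend, not robust), two-sided, with Benjamini-Hochberg adjustment over all 18193 genes, and over all 34945 probe sets where stated; the fit was tested on simulated data. In the simulated data it called 17.4% of genes given a log2 change of 1 and 91.6% of those given 2, and 6.78% of calls were false. The simulated noise was independent between genes and arrays, and many more genes were changed than passed here. These rates check the fit and may not hold for these arrays. The number of arrays limits the precision, so a missing call does not show that a gene did not change. The members and lists were chosen with earlier results of these data known, so lists are described by counts and medians beside those of all genes. Genes named are all members, pathway genes with an unadjusted p under 0.05 and the 3 largest differences per list. Also named are a set of partner, kinase and feedback genes, a few markers, and some interferon-induced genes that were flat or lower. For Csf3r, the member with the widest range, the 3 genes of most alike profile are named. Alternatives covered the value per gene, normalization, low values, a pseudocount of 16, the variance model, weights per array, a block for the replicate number, leaving out single arrays, and the threshold.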

Additional observations from a re-analysis of the deposited data

How the results depend on the processing

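Under all 14 alternatives 0 receptors passed, and the lowest limma adjusted p of a receptor was 0.269. Of 125 receptor differences recomputed, 120 kept their direction. Those that turned were Csf2ra (-0.0428 with replicate block; left-out arrays -0.46 to 0.53), Il6st (0.0776) and Il6ra (-0.10) with the mean of probe sets. For Il6st and Il6ra that mean averages the leading probe set with others that include the opposite sign. The replicate block gives control replicate 3, which has no MSI2-inducible partner, no part in a difference. The Csf2ra value with the block is therefore the same as without control replicate 3. At an unadjusted p of 0.05, 1 receptor, Csf3r, passed with replicate number as a block, and left-out arrays gave 0 to 1 (Il3ra without MSI2-inducible replicate 1, Csf3r without replicate 2). Receptors with arrays apart numbered 2, against 0 with the mean of probe sets and 3 to 5 when single arrays were dropped. Fewer arrays separate more easily. Shares of all genes were counted for the main fit only, 18.7% for arrays apart and 5.64% for an unadjusted limma p under 0.05. The counts under alternatives therefore cannot be set against all genes.

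All genes past the test numbered 4, against 1 with the pseudocount of 16, 2 with array weights, 0 with the replicate block, 7 at an adjusted p of 0.10 and 0 to 0 with an array left out. Same-numbered arrays deviated together with correlations of only 0.134 and 0.0989 over genes, the labels do not pair them, and 2 pairs exist, so the block was not used. Interferon-induced genes past the test fell to 0 with the pseudocount, with array weights, with the replicate block and with any control array left out. The count was also 0 without _x_at and _s_at probe sets, where another probe set stood for Ifi44l, whose leading one is an _s_at. With low values left out it was 0 because Ifi44l, at a mean of 4.09, was itself left out, so that setting did not test it. The median of the interferon-induced list was 0.34 with the mean of probe sets, 0.31 with the replicate block and 0.19 to 0.33 with left-out arrays. The ligand median was -0.11 with low values left out. The inhibitor median was 0.18 and the STAT target median 0.29 without _x_at and _s_at probe sets, and the inhibitor median 0.00707 with array weights. With left-out arrays the medians ran from -0.13 to 0.0569 for other receptor chains, from -0.0463 to 0.25 for kinases and STAT factors, from -0.00535 to 0.17 for inhibitors and from 0.0576 to 0.52 for STAT targets. With a single MSI2-inducible array, its spread was taken from the control arrays. Signal near the floor limits Il3ra and most ligands.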
